A study of Mus musculus with 4 samples.

Results

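The genes described here are Arid5a and 5 other regulators of the stability of inflammatory mRNAs: Zc3h12a (Regnase-1), Zfp36 (tristetraprolin), its paralogs Zfp36l1 and Zfp36l2, and Rc3h1 (Roquin-1). They are 6 of the 18193 genes with a probe set of their own, and 10 of the 45101 probe sets of the array were annotated to them. Arid5a was chosen by its high signal on both arrays of mice given ethylbenzene last, so its second-exposure values are a description and support nothing. The other 5 were chosen by function, with earlier results of these data known. Livers of 2-month-old C57BL/6J mice were measured on 4 Affymetrix arrays, each holding the pooled RNA of 1 group. Group names give both exposures in order, with E for ethylbenzene, an aromatic solvent, and P for phosphate-buffered saline (PBS, here saline). P+P and E+P pooled 3 mice each, and P+E and E+E pooled 5 mice each, so pool size and second exposure cannot be told apart. Mice were injected into the peritoneum 2 times, 24 h apart, as the first exposure, were left for 7 days, and were killed 5 h after the second exposure. Every ethylbenzene dose was 7 mmol per kg, and saline in the first exposure had the volume of the solvent. Below, "after saline" and "after ethylbenzene" refer to the second exposure, and signals follow one order: P+P then E+P for the saline-last arrays, and P+E then E+E for the ethylbenzene-last arrays.

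Many mRNAs of cytokines and immediate early genes carry elements in their 3' untranslated region that set how long they last. Regnase-1, an endoribonuclease, and Roquin-1, an RNA-binding ubiquitin ligase, recognise stem-loops there and promote decay, while Arid5a, a protein with an AT-rich interaction domain, is known to bind the Il6 and Stat3 mRNAs and to stabilise them against Regnase-1. The tristetraprolin family binds AU-rich elements through CCCH zinc fingers and recruits the CCR4-NOT deadenylase. These proteins are best known from macrophages and lymphocytes, whereas the material here was whole liver.

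Arid5a, Zfp36 and Zfp36l1 were at least 2-fold higher in both second-exposure ratios. The 250 bases before their start sites are shown because the data concern transcripts that stood high together 5 h after ethylbenzene. They were read from RefSeq promoter entries (GRCm38.p6), in which 5 of the 6 genes were found and Zfp36l2 was not. The windows are chr1:36307483-36307732 on the plus strand for Arid5a, chr7:28379229-28379478 on the minus strand for Zfp36 and chr12:80113014-80113263 on the minus strand for Zfp36l1, all upstream of the gene. Each is written 5' to 3' along the gene's strand, with capitals for matches to the motifs described after them.
Arid5a: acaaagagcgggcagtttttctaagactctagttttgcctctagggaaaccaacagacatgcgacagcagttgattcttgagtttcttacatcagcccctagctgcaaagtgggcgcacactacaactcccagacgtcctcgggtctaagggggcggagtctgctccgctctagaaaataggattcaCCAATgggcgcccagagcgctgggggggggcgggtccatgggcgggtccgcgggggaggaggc
Zfp36: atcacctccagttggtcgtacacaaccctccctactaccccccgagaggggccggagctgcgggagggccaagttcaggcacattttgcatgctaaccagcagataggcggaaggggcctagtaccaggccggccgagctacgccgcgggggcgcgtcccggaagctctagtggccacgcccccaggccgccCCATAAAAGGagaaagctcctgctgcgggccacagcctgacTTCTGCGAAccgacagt
Zfp36l1: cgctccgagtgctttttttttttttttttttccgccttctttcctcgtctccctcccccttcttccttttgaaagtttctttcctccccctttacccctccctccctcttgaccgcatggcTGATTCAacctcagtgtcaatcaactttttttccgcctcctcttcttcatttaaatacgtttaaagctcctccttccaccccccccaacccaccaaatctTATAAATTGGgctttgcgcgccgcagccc

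Motifs were searched on both strands for a STAT site (TTCNNNGAA), an AP-1 site (TGANTCA), a cyclic AMP response element (TGACGTCA), a CCAAT box (those 5 letters), a TATA box (TATAAA), the CArG consensus of the serum response element and the NF-kB consensus. The Arid5a window held 1 CCAAT box, 63 to 59 bases before the start, and none of the other motifs. A CCAAT box occurred in 33.8% of 32851 promoter windows of the same length. Zfp36 held a CArG match 58 to 49 bases before the start, found in 1.47% of all windows, and a STAT match 17 to 9 bases before it, found in 7.02%. Zfp36l1 held an AP-1 match (6.75% of windows), a TATA box (12.4%) and, sharing 1 base with it, a CCAAT box on the opposite strand. Among the genes with no 2-fold difference in both ratios, Rc3h1 held 1 AP-1 match and Zc3h12a held none of the motifs. No NF-kB consensus (7.25% of windows) or cyclic AMP response element (1.55%) lay in any of the 5 windows. The matches describe letters and were not tested for use.

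The P+P array stood apart in some of its control probe sets. The geometric mean for 18S ribosomal RNA was 1872 there against 122 to 182 on the others. For Actb it was 8928 against 22080 to 30540, and for Gapdh, closer together, 54120 against 56150 to 60220. Some ratios to P+P were therefore also read with E+P in its place, although P+E and E+P differ in both exposures. The signal of Arid5a was near background on both arrays of mice given saline last and high on both arrays of mice given ethylbenzene last. Its only probe set (1451340_at) had normalized signals of 55.0 and 49.6 after saline and 1913 and 2340 after ethylbenzene. The first pair lay below 120.0, the median of all probe sets, which served as the filter on low signals. On the log2(signal + 43.2) scale used for all ratios, P+E exceeded P+P by 4.32 and E+E exceeded E+P by 4.68. With the low signals replaced by the filter level, Arid5a was at least 12.0-fold higher in the first ratio and at least 14.6-fold higher in the second. As deposited, before normalization, the signals were 48.4, 47.7, 1882 and 2307 in the same order. Each group had 1 array, so no ratio has a replicate of its own; both second-exposure ratios are given for each gene, and no test was made. In pooled whole liver more RNA per cell and more cells of a type that expresses the gene cannot be told apart.

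**Figure D1:**
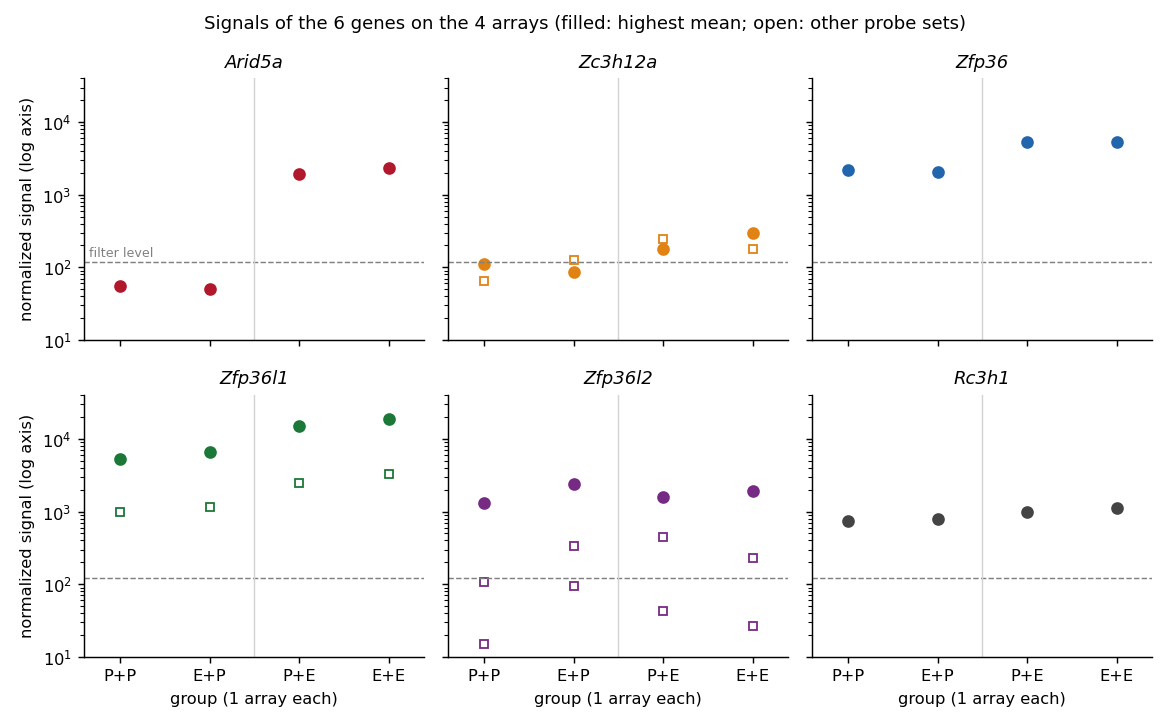
Normalized signal (log axis) of each probe set of the 6 genes on the 4 arrays, 1 point per array, with filled points for the probe set of highest mean and open squares for the others; the dashed line is the filter level of 120.0. Arid5a lies below the line on P+P and E+P and at 1913 and 2340 on the others, Zfp36 and Zfp36l1 shift upward by less, and the probe sets of Zc3h12a and Zfp36l2 do not run in parallel.

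Counted over all 6 genes, 3 were at least 2-fold higher on P+E than on P+P, where 6.54% of all genes past the filter were. On E+E against E+P 4 were higher, beside 6.91% of all genes. In both ratios 3 were higher, beside 2.87% of all genes. None of the 6 was at least 2-fold lower in either ratio, beside 6.7% of all genes in the first, 6.74% in the second and 1.86% in both. Without Arid5a, whose ratios chose it, 2 of 5 were higher in the first ratio, 3 in the second and 2 in both. All 6 genes passed the filter on mean signal. For Arid5a and Zc3h12a, whose saline-last signals lay below the filter level, that rested on the ethylbenzene arrays, so the counts over these genes describe the arrays and are no test. The median log2 ratio of the 6 was 0.89 and 1.38, and that of all genes was -0.07 and -0.05. Quantile normalization was among the steps, and the same 3 counts came out with the signals as deposited.

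**Figure D2:**
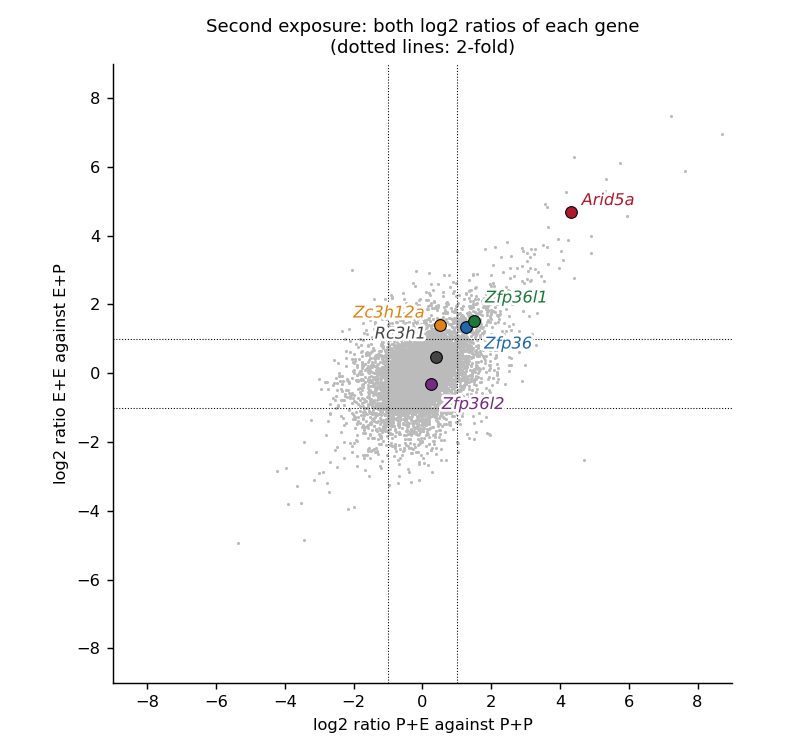
Log2 ratio of E+E to E+P against log2 ratio of P+E to P+P for the 11513 genes past the filter (grey points) and the 6 genes (coloured points), with dotted lines at 2-fold. Arid5a lies at 4.32 and 4.68, Zfp36 and Zfp36l1 lie just past 2-fold on both axes, Zc3h12a passes it on the vertical axis alone, and Zfp36l2 and Rc3h1 lie inside the lines.

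Among the factors that promote decay, the tristetraprolin genes Zfp36 and Zfp36l1 were the ones past 2-fold in both ratios. Zfp36, an early response gene whose product binds AU-rich elements, had signals of 2157 and 2081 after saline and 5285 and 5370 after ethylbenzene on its only probe set (1452519_a_at). The ethylbenzene-last signal was 2.42-fold higher in mice given saline first and 2.55-fold higher in mice given ethylbenzene first. The log2 ratios were 1.28 and 1.35, exceeded by 4.02% and 3.87% of all genes. All of these signals stood well above the filter level, so these ratios do not rest on a signal near background.

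Zfp36l1, a paralog of Zfp36, had signals of 5266 and 6582 after saline and 15037 and 19116 after ethylbenzene on the probe set that stood for it (1450644_at). The ratios were 2.84-fold and 2.89-fold (log2 1.51 and 1.53), exceeded by 2.86% and 2.87% of all genes. Its other probe set (1422528_a_at) read 981 and 1146 after saline and 2444 and 3292 after ethylbenzene. That gave 2.43-fold and 2.80-fold, the same direction and a similar size.

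Zc3h12a, which encodes the nuclease Regnase-1, had low signals throughout, and its 2 probe sets did not place the ethylbenzene-last arrays in the same order. The probe set of higher mean (1427348_at) read 111 and 85.5 after saline and 177 and 299 after ethylbenzene. Both saline-last signals lay below the filter level, and the log2 ratios were 0.51 and 1.41, so the second was past 2-fold and the first was not. With low signals at the filter level the gene was higher by at least 1.35-fold in mice given saline first, and by at least 2.10-fold in the others. The other probe set (1443993_at) read 64.4 and 127 after saline and 249 and 181 after ethylbenzene, with log2 ratios of 1.44 and 0.40. On each probe set both log2 ratios were positive, but a different ratio passed 2-fold. Averaged over the probe sets the log2 ratios were 0.98 and 0.90, both short of 2-fold.

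Zfp36l2, the remaining gene of the tristetraprolin family, did not share the pattern of Zfp36 and Zfp36l1. Its probe set of highest mean (1437626_at) had signals of 1325 and 2372 after saline and 1584 and 1913 after ethylbenzene, so the saline-last and ethylbenzene-last arrays overlapped. The log2 ratios were 0.25 and -0.30, and the first was -0.57 when P+E was set against E+P in place of P+P. A second probe set (1451034_at) read 106 and 339 after saline and 445 and 229 after ethylbenzene, with log2 ratios of 1.71 and -0.49. The last probe set (1439054_at), between 15.1 and 94.4, lay below the filter level on all 4 arrays. All 3 probe sets had their lowest signal on P+P, and they differed in the order of the other arrays.

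Rc3h1, encoding Roquin-1, was less than 2-fold apart in every ratio. Its only probe set (1434933_at) read 750 and 796 after saline and 1002 and 1132 after ethylbenzene. The ethylbenzene-last arrays lay above the saline-last arrays by 1.32-fold and 1.40-fold, short of 2-fold, and 20.6% and 18.4% of all genes had higher ratios. Its relatives gave no 2-fold difference in these ratios. Rc3h2 (Roquin-2) had log2 ratios of -0.17 and 0.11, Zc3h12c of -0.39 and -0.09, Zc3h12d of 0.32 and -0.15, and N4bp1, which holds a nuclease domain akin to that of Regnase-1, of 0.10 and -0.99. The other probe set of Zc3h12c had the opposite sign in both ratios, and those of Rc3h2 and N4bp1 were split. Zc3h12b was not analysed here.

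The first exposure, read 7 days later, was compared as E+P against P+P, both given saline last, and as E+E against P+E, both given ethylbenzene last. All 6 genes were less than 2-fold apart in these ratios. Of all genes 5.31% and 7.96% were at least 2-fold apart, so a count of 0 among 6 does not set these genes apart. Arid5a was at -0.08 and 0.28 on the log2 scale, its first value comparing 2 signals below the filter level. Zfp36 was at -0.05 and 0.02, Zfp36l1 at 0.32 and 0.35 and Rc3h1 at 0.08 and 0.17. Zc3h12a was at -0.26 and 0.64, but at 0.66 and -0.38 on its other probe set. The furthest apart in the first ratio was Zfp36l2, whose E+P signal exceeded the P+P signal 1.76-fold (log2 0.82), a ratio exceeded by 3.85% of genes. Its second probe set was at least 2.34-fold higher there, and the mean of its probe sets gave a log2 ratio of 1.14. On E+E against P+E the same 2 probe sets of Zfp36l2 stood at 0.27 and -0.84.

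Whether an earlier exposure went with a different second-exposure ratio was read from the difference of the 2 ratios (mice given ethylbenzene first minus mice given saline first), which holds the error of all 4 arrays. It was 0.37 for Arid5a, 0.07 for Zfp36, 0.03 for Zfp36l1 and 0.09 for Rc3h1, so the paired ratios of these 4 genes lay less than 0.5 apart. For Zc3h12a it was 0.90 on the probe set that stood for the gene and -1.04 on the other. For Zfp36l2 it was -0.55, and -2.20 on its second probe set. No spread between animals was measured against which these differences could be set.

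The 4 signals of Arid5a were compared with those of other genes past the filter, each centred on its own mean. The measure was the Euclidean distance over the 4 arrays in log2 units. Genes with clone or predicted names were left out, so a nearer gene among them would not be named. The nearest was Tacc2, a centrosomal coiled-coil protein, at 0.10, with signals of 619 and 638 after saline and 13393 and 16995 after ethylbenzene. It was followed by S100a9, a calcium-binding protein of neutrophils, at 0.51, Inhbb, an inhibin and activin subunit, at 0.57, Fbf1, a protein of cilia, at 0.59 and Ctrb1, a pancreatic chymotrypsinogen, at 0.61. S100a9 is a marker of neutrophils and Ctrb1 of the exocrine pancreas. The saline-last signals of Ctrb1 (10.9 and 12.9) and of Arid5a lay below the filter level, so their distance depends on the pseudocount. With low signals at the filter level the second-exposure log2 ratios were 2.34 and 2.38 for Ctrb1 and 3.58 and 3.87 for Arid5a. Genes nearest to Zfp36 were Rsad2 (0.09), Eif1a (0.09) and Crem (0.12), and those nearest to Zc3h12a were Snhg16 (0.07), Garem1 (0.07) and Dscam (0.10). With 4 arrays and 11513 genes close matches are easily found, and likeness over so few points says nothing of shared function.

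**Figure D3:**
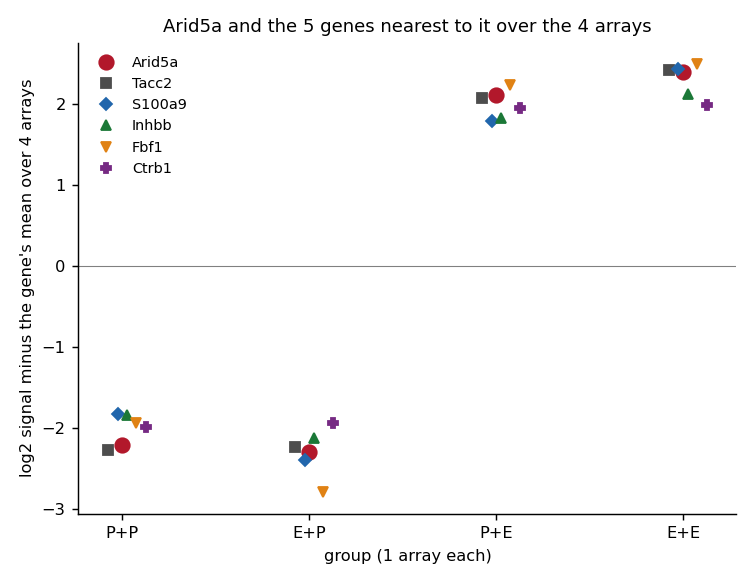
Log2 signal minus the gene's own mean over the 4 arrays (vertical axis) for Arid5a and the 5 genes nearest to it, 1 point per gene and array, set slightly apart sideways. Genes with clone or predicted names were left out of the search. All 6 genes lie below 0 on P+P and E+P and above 0 on P+E and E+E, and Tacc2 (distance 0.10) lies closest to Arid5a.

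The proteins that carry out decay after these factors have bound were read against all genes past the filter, of which 78.3% were less than 2-fold apart in both ratios. Of 17 genes of CCR4-NOT, TOB/BTG and other deadenylation 12 were, a share near that of all genes. In the first ratio 2 were higher and 2 lower, beside 6.54% and 6.7% of all genes. In the second 1 was higher and 2 lower, beside 6.91% and 6.74%. Btg2, an early response gene of the antiproliferative BTG family, had signals of 257 and 408 after saline and 2985 and 2228 after ethylbenzene, and log2 ratios of 3.33 and 2.33. Btg1 was at 1.60 and 0.96. Tob1, of the related TOB proteins, was lower in both, with signals of 3135, 2956, 801 and 418 and log2 ratios of -1.91 and -2.70. Cnot3, a subunit of the complex, was at -0.93 and -1.11, with its other probe set in the opposite direction, and Parn, a poly(A)-specific ribonuclease, at -1.81 and 0.06, with its other probe set opposite in the first ratio. Cnot1 and Btg3 were not analysed here.

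Decapping and 5' to 3' decay had 13 genes past the filter, of which 11 were less than 2-fold apart in both ratios. In each ratio 1 was lower, Lsm2 of the Lsm ring (-1.68 and 0.26) in the first and Edc3, an enhancer of decapping (-0.85 and -1.04), in the second. Of all genes 6.7% were lower in the first ratio and 6.74% in the second. The helicase gene Ddx6 was at -0.79 and -0.39, the exonuclease gene Xrn1 at -0.92 and -0.20 and Lsm1 at -0.42 and -0.73. All other probe sets of Ddx6, Xrn1 and Lsm1 had the opposite sign in the first ratio. Of 14 RNA exosome genes 13 were less than 2-fold apart in both ratios. The exception was Dis3l, a catalytic subunit of the cytoplasmic exosome, at -0.64 and -1.24, the second being -0.99 with low signals at the filter level. The other AU-rich element binding proteins numbered 17, and 16 were less than 2-fold apart in both ratios. Hnrnpl was higher in both (1.84 and 1.40), from signals below the filter level on P+P and E+P, and was at 0.89 and 1.21 with these at that level. Hnrnpl passed the filter through the ethylbenzene-last arrays, so its place in the count is no test. Median log2 ratios were 0.09 and -0.01 for deadenylation, -0.25 and -0.19 for decapping, 0.14 and -0.01 for the exosome and -0.09 and -0.01 for the binding proteins.

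Other genes with an AT-rich interaction domain did not share the pattern of Arid5a. Of 12 past the filter 11 were less than 2-fold apart in both ratios, beside 78.3% of all genes, and the medians were 0.00 and -0.14. The exception was Arid3a, with signals of 182 and 219 after saline and 263 and 47.4 after ethylbenzene, whose second log2 ratio was -1.53, or -0.68 with the E+E signal at the filter level. The histone demethylase genes Kdm5b (-0.24 and -0.47) and Kdm5d (-0.79 and -0.73) and the Polycomb cofactor gene Jarid2 (-0.68 and 0.11) stayed within 2-fold.

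Among 15 genes for kinases and other proteins that act on these factors, 2 were higher and 1 lower in both ratios, and 12 were less than 2-fold apart in both. Over all genes these shares were 2.87%, 1.86% and 78.3%. Mapkapk2, encoding the kinase MK2 that phosphorylates tristetraprolin, had signals of 946 and 1063 after saline and 2112 and 2569 after ethylbenzene, and log2 ratios of 1.12 and 1.24. Map3k8, a kinase gene upstream of ERK, had signals of 115, 11.9, 637 and 664, and with its low signals at the filter level stood at 2.06 and 2.12. Map3k8 passed the filter through the ethylbenzene-last arrays, so the count of higher genes is no test. Map2k6, a kinase gene that activates p38, was lower in both, with signals of 531, 603, 153 and 38.3 and log2 ratios of -1.55 and -1.99 with E+E at the filter level. Mapkapk3 was at 0.48 and 0.79 and Tbk1 at 0.51 and 0.79. Only 1 of the 15 was higher in the first ratio when P+E was set against E+P, a ratio whose share over all genes was not counted. Malt1, the protease that cleaves Regnase-1, lay below the filter on mean signal, and Chuk and Irak4 were not analysed here.

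**Figure D4:**
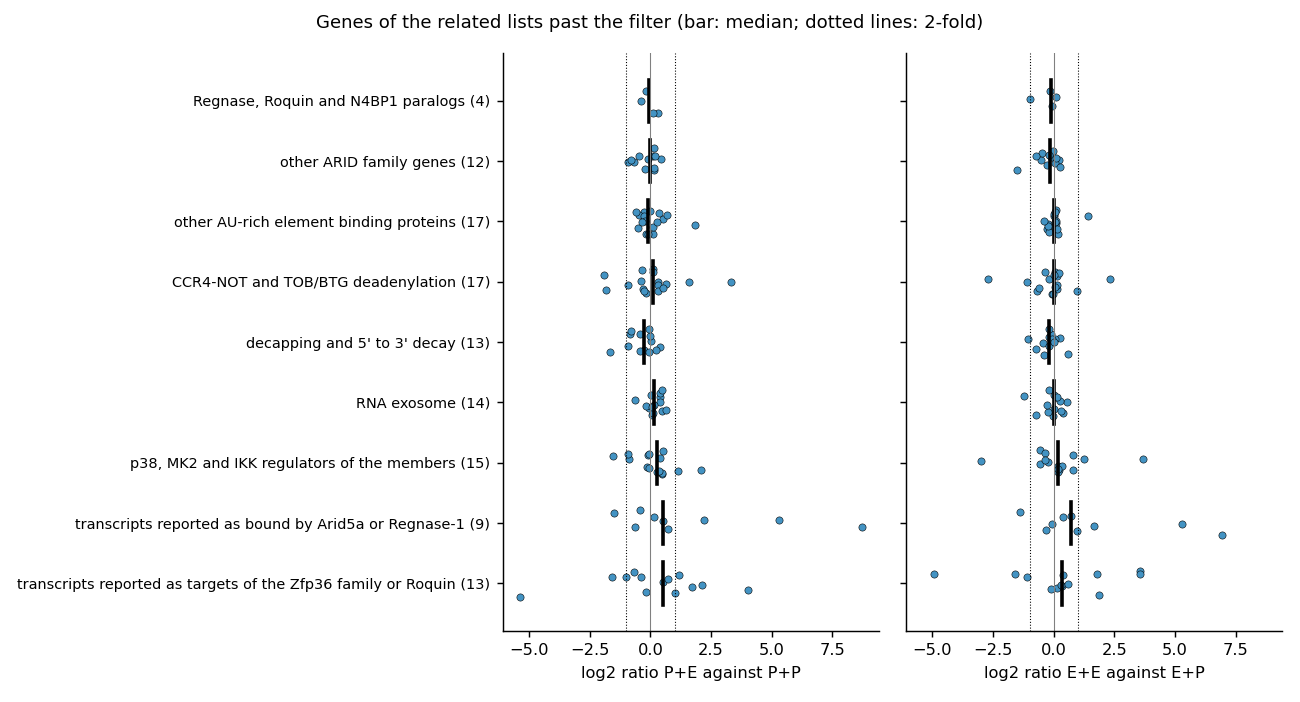
Log2 ratio of P+E to P+P (left) and of E+E to E+P (right) for the genes past the filter in the 9 related lists, 1 point per gene, with a bar at each list's median, dotted lines at 2-fold and the number of genes in brackets. Most genes of the decay machinery lie inside the dotted lines, as do most genes on the array (78.3% in both ratios), and the widest spread is among the reported target transcripts, where the medians are 0.52 and 0.72 (Arid5a or Regnase-1) and 0.51 and 0.32 (Zfp36 family or Roquin).

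Transcripts known from other work as bound by Arid5a or Regnase-1 were described next. Il6, the best known of them, was at or below the filter level on every array, with signals of 59.8 and 120.0 after saline and 89.9 and 104.8 after ethylbenzene, so no ratio is given. Of 17 listed transcripts 9 passed the filter, 3 were higher and 1 was lower in both ratios, and 5 were less than 2-fold apart in both. Of all genes past the filter 2.87% were higher in both, 1.86% lower in both and 78.3% less than 2-fold apart in both. Stat3, encoding the transcription factor activated by interleukin-6, had signals of 1466 and 2335 after saline and 6923 and 7549 after ethylbenzene, and log2 ratios of 2.21 and 1.67, and its 4 probe sets had the same sign. The other higher ones were Lcn2 and Cxcl1, with second log2 ratios of 6.95 and 5.29. Tfrc, the transferrin receptor gene, was lower, from 2028 on P+P and 1638 on E+P to 689 on P+E and 592 on E+E. Nfkbiz, a regulator of NF-kB targets, was at 0.52 and 0.72. The medians of the list were 0.52 and 0.72.

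Of 20 transcripts listed as targets of the tristetraprolin family or Roquin, 13 passed the filter. In both ratios 4 were higher and 2 lower, and 5 were less than 2-fold apart in both. The shares over all genes past the filter were 2.87%, 1.86% and 78.3%. Pim1, a kinase gene, had signals of 620 and 861 after saline and 2816 and 3051 after ethylbenzene, and log2 ratios of 2.11 and 1.77. Ier3, an early response gene, had signals of 104, 26.8, 253 and 781, and with low signals at the filter level stood at 0.86 and 2.34. Ier3 passed the filter through the ethylbenzene-last arrays, so the count of higher genes is no test. Socs3 (4.03 and 3.56) was among the higher ones. Cyp7a1, a bile acid synthesis gene reported as a target of Zfp36l1, was the lowest (-5.37 and -4.93), and Ccnd1, a G1 cyclin gene, stood at -1.59 in both ratios. Tnf, the textbook target of tristetraprolin, lay below the filter level on all 4 arrays, between 14.0 and 81.0.

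Set against E+P in place of P+P, P+E had 3 of the 6 genes at least 2-fold higher. They were Arid5a, which was chosen by such values, at 4.40, Zfp36 at 1.33 and Zfp36l1 at 1.19. The P+E and E+P arrays differ in both exposures, and the share of all genes past 2-fold was not counted for this ratio, so the count is a description only. Markers of some other cell types differed between the arrays too. All 7 hepatocyte markers were above the filter level on every array; their sum is not compared, since quantile normalization sets the highest signals, and Apob was lowest on P+P (27987, against 62547 to 82975 on the others). The summed signal of 9 neutrophil markers was 1438 and 1005 after saline and 4630 and 6843 after ethylbenzene. S100a8 and S100a9, the 2 of 5 past the filter that were higher in both ratios, summed to 241, 221, 3531 and 5531, and the other 7 to 1197, 784, 1099 and 1312. Among these, Csf3r had log2 ratios of 2.08 and 0.08, Ngp of -0.89 and 1.33 and Camp of -1.51 and 0.055. With low signals at the filter level the first ratio was 1.87 for Csf3r and -0.69 for Camp. Mpo, Elane, Ltf and Cxcr2 did not pass the filter. The 10 Kupffer cell markers summed to 18318, 27775, 16059 and 18445, with none higher in the second-exposure ratios and a median of 0.64 on E+P against P+P. The 8 lymphocyte markers summed to between 723 and 986, with Cd3d, Cd3e, Cd3g, Cd4 and Cd79a below the filter. The 7 pancreatic acinar markers summed to 2972, 2454, 7462 and 7551, and 6 of them were higher in both ratios. The exception was Cela1 (-0.52 and -0.11). Cpa1, Ctrb1 and Cel lay below the filter level on both saline-last arrays and passed the filter through the ethylbenzene-last arrays, so that count is no test. None of 8 stellate cell markers and 1 of 8 endothelial markers was higher in both. Of all genes past the filter 2.87% were higher in both ratios. The part of these cell types in the values of Arid5a, Zfp36, Zfp36l1, Zc3h12a and their targets was not tested.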

How the data were processed

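Liver RNA of 4 groups, pooled per group, was hybridised to 1 Affymetrix array each. The deposited values were linear probe set intensities, 45101 per array. The summarising software and scaling method are not given in the sources used here, but a mean trimmed by 2% at either end came to 500.0 on every deposited array. Medians were 129.9 to 153.1. From the deposited intensities, signals were quantile-normalized over the 4 arrays and taken as log2(signal + 43.2), with the 25th percentile of all signals as pseudocount; ratios are differences on this scale and understate those of low signals. The platform annotation named the probe sets, with symbols updated by Entrez identifier for 34741 of the 34945 with 1 symbol; 932 had several, 9160 none, and 64 were controls. A gene was represented by its probe set of highest mean. The filter was the median of all probe sets (120.0), which left 11513 of 18193 genes. A difference of 2-fold was a fixed rule of size; with 1 array per group, no test was made. Members, lists and alternatives were chosen with earlier results of these data known. Named genes were all 6 members, up to 5 per related list by the mean of both second-exposure ratios in size, every measured paralog of Regnase-1 and Roquin-1, and the nearest patterns (5 for Arid5a, 3 each for Zc3h12a and Zfp36). Clone and predicted names were left out of the nearest patterns. Il6, Tnf, Malt1 and the cell type markers were named in addition, with their values seen. The steps were tested on simulated arrays, with changes put only into genes well above the filter level. Signals near background were not covered by that test. Python 3.11.15, pandas 2.3.3 and numpy 2.4.6 were used. Signals of closely related genes can be shared by probe sets. Array number limits the precision, and depth does not apply.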

Additional observations from a re-analysis of the deposited data

Results flagged for a closer look

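These results were picked out because a ratio had opposite signs in the 2 comparisons that share no array. The differences rest on 1 array per group and were not tested. For the second exposure (E+E against E+P minus P+E against P+P), Zfp36l2 differed by -0.55 (0.25 in P+E against P+P, -0.30 in the other). Among the relatives of Regnase-1 and Roquin-1, Rc3h2 differed by 0.28, Zc3h12d by -0.47 and N4bp1 by -1.09. Among other genes with an AT-rich interaction domain, Arid3a differed by -1.97, Arid3b by 1.18 (-0.91 and 0.27) and Jarid2 by 0.78. The E+E signal of Arid3a (47.4) and the P+E signal of Arid3b (64.5) lay below the filter level. With these at that level, the second ratio of Arid3a was -0.68 and the first of Arid3b was -0.31. In the decay machinery, Parn differed by 1.87, Lsm2 by 1.93 and Exosc1 by 0.61. For the first exposure (E+E against P+E minus E+P against P+P), Arid5a differed by 0.37, Zc3h12a by 0.90 and Zfp36 by 0.073. These are by definition the same differences as those of the second-exposure ratios, not further results. The E+P and P+P signals of Arid5a both lay below the filter level. For Zc3h12a the difference was -1.04 on its other probe set and -0.07 with averaged probe sets.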

How the results depend on the processing

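The limits are those of 4 arrays without replicates, and signals near background bound what can be said of Arid5a after saline, of Zc3h12a and of Il6. Under 7 alternatives (signals as deposited, a common 75th percentile, pseudocounts of 16 and 142.1, averaged probe sets, leaving out probe sets that may match several transcripts, low signals at the filter level), Arid5a ranged from 3.38 to 4.76 in the first second-exposure ratio and from 3.69 to 5.17 in the second. The number of members higher in both ratios was 3 under each. Zc3h12a fell short of 2-fold in its second ratio at a pseudocount of 142.1 (0.95) and with averaged probe sets (0.90), which left 3 members there. Averaged probe sets put 1 member past 2-fold in E+P against P+P. Over all related lists, 7 genes were lower in the first ratio, 11 with a pseudocount of 16 and 4 with a filter at the 75th percentile; in the second, 10 were lower, 5 with a pseudocount of 142.1 and 6 with that filter. The cause was not tested. Of 201 single values of members, 191 kept their side of 2-fold, those short of it moving by less than 0.5, and none past 2-fold changed sign; of 342 counts of single lists, 303 stayed within 1.5 times. Setting P+E against E+P was added after the data were seen. The 201 values include it for the members other than Arid5a. They leave out the second-exposure ratios of Arid5a, whose ranges are given above. No array could be left out as a replicate, with 1 per group.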
